A study of Mus musculus with 146 samples.

Results

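The response to ethanol vapor was examined across all genes in the prefrontal cortex of male mice. All libraries titled as male prefrontal cortex were taken by title, which gave 18 of the 146 libraries of the series, and each came from a different mouse. Of these, 8 were from the ethanol vapor group, called CIE (chronic intermittent ethanol), and 10 from the group kept in air, called Air. All mice were C57BL/6J, and no transgene, deletion or age was named in the labels. Every mouse of both groups first chose between water and 15% ethanol in 2-h sessions on 5 days per week for 4 weeks. CIE mice then breathed ethanol vapor for 16 h of each day, with 8 h off, over 4 days, after an injection of ethanol (1.75 g/kg) with pyrazole (68.1 mg/kg), an inhibitor of alcohol dehydrogenase. Air mice received the same pyrazole in saline. After 72 h both groups drank again for 5 days, and this was done over 4 cycles before a final exposure of 4 days, with tissue taken 1 week later. The Air group therefore drank ethanol too, and CIE mice had been without vapor for 1 week. Tissue was a micropunch, so the libraries hold all cell types within it, and TagSeq reads only the 3′ end of each mRNA. Levels are given as gene counts scaled to library size (CPM) and adjusted by TMM, a normalization for library composition, and differences as the log2 fold change of CIE against Air with its standard error (SE).

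The prefrontal cortex guides planning and restraint, and it adapts to repeated alcohol exposure and withdrawal. Hypocretin, a peptide of wakefulness and reward seeking, is made by neurons of the lateral hypothalamus that send fibers to the cortex. Within cells, heat shock proteins and the chaperones of the endoplasmic reticulum fold proteins, and oxidative phosphorylation in mitochondria supplies neurons with ATP.

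The libraries held 2129712 to 3861281 gene counts. By exact permutation tests over mice (two-sided) the groups did not differ past the threshold in gene counts (p = 0.257), genes detected (p = 0.219) or the percentage of reads on ERCC spike-in RNA (p = 0.813), and the percentage of reads left off genes gave p = 0.0265, or 0.106 after Benjamini-Hochberg adjustment over these 4 measures. Slc17a7, the vesicular glutamate transporter of cortical excitatory neurons, was present in every library at 251 CPM or more. In 3 libraries, of CIE mice 4 and 20 and Air mouse 15, Gad1, an enzyme of GABA synthesis, was at 465 to 719.6 CPM against 131 to 263 in the other 15. In the 4 libraries of CIE mice 1 to 4, Alb, the albumin gene of liver, exceeded 50 CPM, and the comparison was therefore repeated with the other 4 CIE libraries against the 10 Air libraries.

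Across all genes the groups differed little. Of 12846 genes tested, 1 passed an adjusted p of 0.05 by edgeR (0.00778%), and this was Hcrt, which was higher in CIE. An unadjusted p under 0.05 was found for 718 genes (5.59%), with 357 higher in CIE (2.78%) and 361 lower (2.81%). Positive values made up 49.7% of all genes, and the median was -0.00. Without the liver-transcript libraries, 0 of 12951 genes passed by edgeR, 0 by limma voom and 1, again Hcrt, by DESeq2. There, 653 genes had an unadjusted p under 0.05 (5.04%), 311 higher (2.4%) and 342 lower (2.64%), and 49.6% of all genes were positive.

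Hcrt (ENSMUSG00000045471.4, GRCm38 chromosome 11, 100761069 to 100762931, minus strand) encodes the precursor of both hypocretins, and no other annotated gene overlaps it. For its level, CIE mice ran from 15.2 to 30.5 CPM with a median of 23.3, and Air mice from 4.19 to 13.9 CPM with a median of 8.73. Every CIE mouse thus lay above every Air mouse. The values rest on 43 to 112 reads in CIE libraries and 10 to 34 reads in Air libraries. The log2 fold change was 1.46 (SE 0.18, edgeR p = 8.43e-08, adjusted p = 0.00108). An exact permutation test over mice on log2(CPM + 1), two-sided, gave p = 2.29e-05, the smallest that 43758 assignments allow. Full separation of the groups sets this p at or near its minimum. Since Hcrt was also named from these same values, the permutation p is no separate support. CIE libraries with liver transcripts held 23.0 to 30.5 CPM and the others 15.2 to 23.5 CPM, and all 4 of the latter still exceeded every Air mouse. With these 4 CIE libraries, 20 of the 12846 genes lay above every Air mouse (0.156%) and 16 below (0.125%). Against Air alone these 4 gave 1.19 (SE 0.22, edgeR p = 3.26e-05, adjusted p = 0.305). The exact permutation p was 0.000999, the smallest that 1001 assignments allow, and the same limit holds for it. A further fit took as covariate the mean log2 CPM of the liver genes that passed the filter on low counts, 5 of 30 listed. For Hcrt it was added with the data in view, and there the value was 1.05 and no longer passed by edgeR (adjusted p = 1.000). The edgeR call on Hcrt was thus lost in both settings, and it was kept without the 3 libraries of high Gad1 (edgeR adjusted p = 0.00123). Ttr, higher in every CIE mouse than in every Air mouse, is among the genes of this covariate. The summed level of the whole liver list, also with Ttr, was at least 173 CPM in every CIE library and at most 119.7 CPM in Air. The fit with this covariate therefore cannot separate liver transcripts from treatment.

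**Figure D1:**
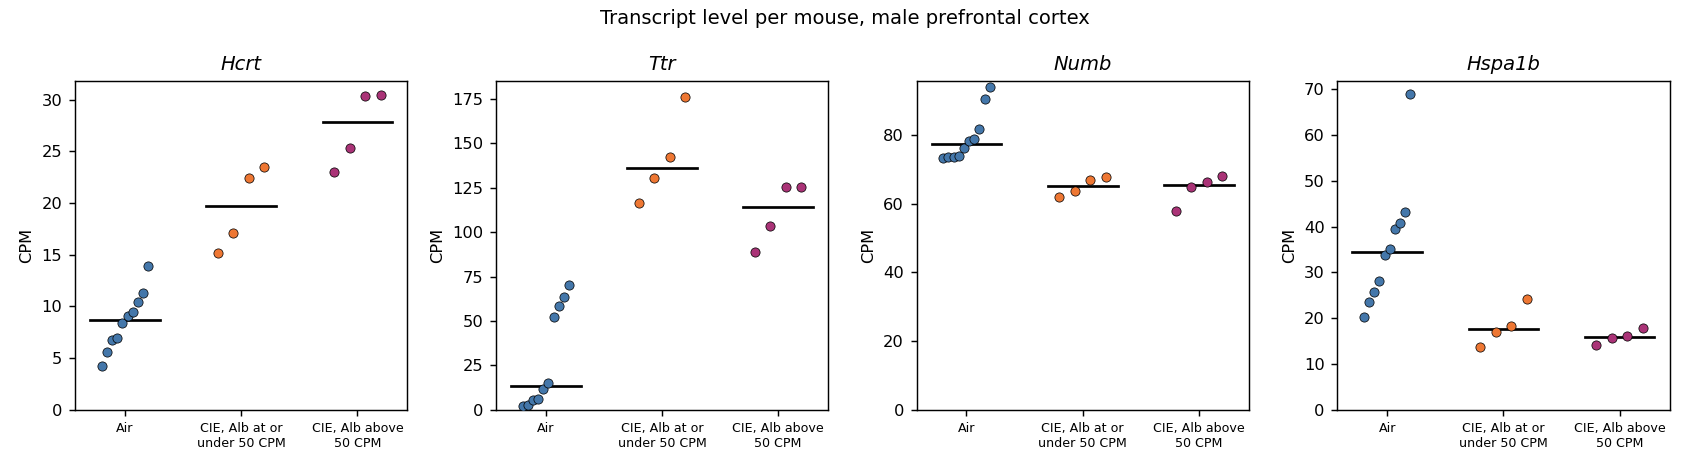
Level of Hcrt, Ttr, Numb and Hspa1b in CPM (vertical axis) in male prefrontal cortex, with 1 point per mouse and a bar at the median, for Air mice, CIE mice with Alb at or under 50 CPM and CIE mice with Alb above it. All CIE points lie above all Air points for Hcrt and Ttr and below them for Numb, whereas the Hspa1b groups overlap between 20.3 and 24.1 CPM.

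Transcripts of the hypocretin receptors were near the limit of detection. Hcrtr1, which prefers hypocretin 1, ranged from 0 to 4.69 CPM in CIE and from 0 to 2.50 CPM in Air and was too low to test. Hcrtr2, which binds both peptides, ranged from 1.61 to 4.02 CPM in CIE and from 1.43 to 4.61 CPM in Air, and was tested only without the liver-transcript libraries, with 0.32 (SE 0.31, edgeR p = 0.305).

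Hcrt was also read in other libraries of the study. In male hypothalamus, where hypocretin neurons lie, it ranged over 244 to 1683 CPM in CIE and 52.4 to 948 CPM in Air, so that the groups overlapped, with 1.09 (SE 0.51, edgeR p = 0.0419, adjusted p = 0.641). In male amygdala it ranged over 11.5 to 42.3 CPM and 5.43 to 32.3 CPM, with 0.90 (SE 0.32, edgeR p = 0.0110, adjusted p = 0.431). These regions come from the same mice as the cortex. In female prefrontal cortex (10 CIE and 9 Air mice) it ranged over 1.98 to 38.6 CPM and 0 to 24.4 CPM, with 0.90 (SE 0.62, edgeR p = 0.162, adjusted p = 0.950). Interaction terms did not show the response in male prefrontal cortex to differ from that of females (edgeR p = 0.414), of hypothalamus (p = 0.619) or of amygdala (p = 0.169). The region fits treated libraries of the same mouse as independent. With the mouse as a block, edgeR gave p = 0.797 for hypothalamus and p = 0.125 for amygdala.

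Other transcripts of hypothalamic neurons were present in the cortex libraries. Of 22 listed, 6 passed the filter on low counts, and 5 of 6 were positive, Hcrt among them (median 0.43). When the liver-transcript libraries were left out 4 of 7 were positive (median 0.01), with Oxt lower at an unadjusted p under 0.05. Pmch encodes melanin-concentrating hormone, made by neurons that neighbour the hypocretin neurons. For Pmch, CIE mice ran from 35.9 to 63.3 CPM with a median of 48.8, and Air mice from 12.7 to 61.7 CPM with a median of 35.3, so that the groups overlapped, with 0.52 (SE 0.24, edgeR p = 0.0399, adjusted p = 0.875). Oxt, the oxytocin gene, ranged from 6.01 to 23.4 CPM in CIE and from 1.78 to 52.9 CPM in Air, with the other sign at -0.83 (SE 0.44, edgeR p = 0.0753). Oxt without the liver-transcript libraries gave -1.46 (SE 0.62, edgeR p = 0.0298). Kiss1 and Prlh were at 0 in all 18 libraries.

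Oxt in cortex followed the numbers of the mice, in sets formed after the values were seen. Within Air, Oxt was at 36.0 to 52.9 CPM in mice 6 to 9, 17.8 to 19.6 CPM in mice 10 to 13 and 1.78 to 2.17 CPM in mice 14 and 15. In CIE it was at 13.2 to 23.4 CPM in mice 1 to 4 and 6.01 to 12.0 CPM in mice 5, 16, 18 and 20. Oxt thus differed more between sets of Air mice than between the groups. In the hypothalamus of the same sets the mean of Oxt was 1505, 735, 134, 632 and 286 CPM. The set means in cortex were 1.47% to 3.33% of those in hypothalamus for Oxt, 1.60% to 3.71% for Pmch, 1.57% to 3.00% for Hcrt and 1.92% to 5.42% for Avp, the vasopressin gene. Mouse by mouse the percentage varied far more, from 0.711% to 31.1% for Oxt, 0.982% to 19.1% for Pmch and 0.748% to 16.1% for Hcrt. For Hcrt, the set means in cortex were 8.48, 9.07 and 7.91 CPM in Air and 27.3 and 19.5 CPM in CIE. In hypothalamus they were 374, 319.5 and 505 CPM in Air and 976 and 651 CPM in CIE. By these means both CIE sets were above all Air sets in cortex and hypothalamus. In amygdala the set means were 15.6, 8.17 and 5.70 CPM in Air and 27.3 and 14.1 CPM in CIE. There CIE mice 5, 16, 18 and 20 were below Air mice 6 to 9. Blood libraries of these mice held Hcrt as well, at 0.809 to 98.9 CPM in CIE and 0 to 111 CPM in Air. The blood medians of Hcrt, 43.2 CPM in CIE and 52.0 CPM in Air, were above those in cortex. Pmch reached 213 CPM in blood of CIE mice and 278 CPM in blood of Air mice, and Oxt 177 and 223 CPM. No set holds both treatments, so mouse numbers and treatment cannot be told apart, and the part of hypothalamic RNA in the Hcrt difference was not tested.

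**Figure D2:**
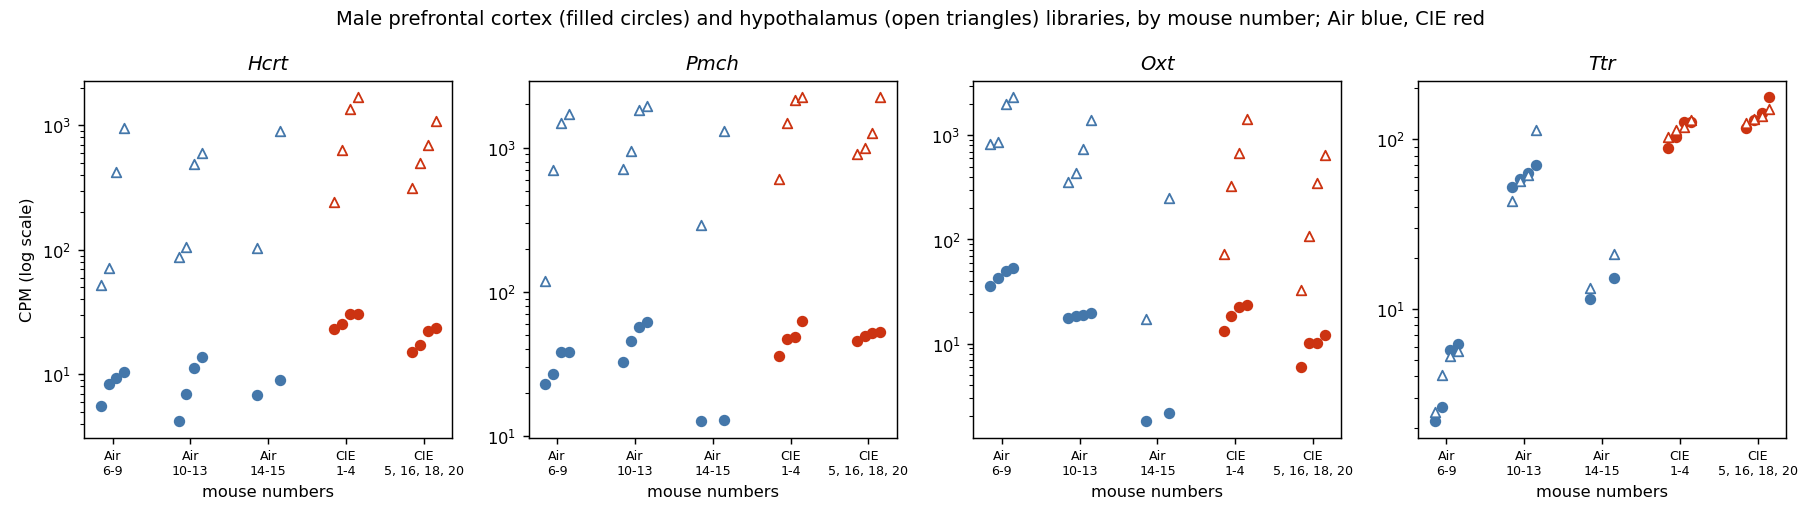
Level of Hcrt, Pmch, Oxt and Ttr in CPM (vertical axis, log scale) in prefrontal cortex (filled circles) and hypothalamus (open triangles) of each male mouse, by set of mouse numbers (horizontal axis), with Air in blue and CIE in red. Oxt in cortex steps between the 3 Air sets, and the set means of Ttr in cortex are 77.8% to 104% of those in hypothalamus.

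Ttr encodes transthyretin, a thyroid hormone carrier made by choroid plexus and liver, and with Hcrt it was the only gene with every CIE mouse above every Air mouse (0.0156% of genes tested). For Ttr, CIE mice ran from 89.1 to 176 CPM with a median of 126, and Air mice from 2.17 to 70.2 CPM with a median of 13.3. Its log2 fold change was 2.19 (SE 0.47, edgeR p = 0.000138, adjusted p = 0.253), and 2.37 (SE 0.55, edgeR p = 0.000437) without the liver-transcript libraries. It also stepped between sets of Air mice, with 2.17 to 6.19 CPM in mice 6 to 9, 52.0 to 70.2 CPM in mice 10 to 13 and 11.4 to 15.2 CPM in mice 14 and 15. The other 7 choroid plexus markers, such as Folr1 and Kcnj13, stayed at 0 to 8.21 CPM in every library. In male hypothalamus Ttr gave 2.04 (SE 0.41, edgeR p = 5.47e-05), and in female prefrontal cortex 0.11 (SE 0.86, edgeR p = 0.900). In male amygdala it gave 1.69 (SE 1.03, edgeR p = 0.115), with overlapping ranges of 106 to 7271 CPM in CIE and 13.2 to 4536 CPM in Air.

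Liver transcripts gave the largest values and, among the male mice compared here, were carried by 4. Alb was at 106 to 135 CPM in CIE mice 1 to 4, 2.01 to 3.89 CPM in the other CIE mice and 0.789 to 5.71 CPM in Air, with 4.46 (SE 0.81, edgeR p = 1.97e-05, adjusted p = 0.0859). Apoa1, the main protein of high-density lipoprotein, was at 46.9 to 58.8 CPM, 4.69 to 7.77 CPM and 2.86 to 7.62 CPM in the same order. Its log2 fold change was 2.48 (SE 0.49, edgeR p = 6.01e-05, adjusted p = 0.154), and 0.10 (SE 0.25, edgeR p = 0.696) without the 4 libraries. Since Alb itself set these libraries apart, the Alb value and p describe them and not the CIE group. The fall of Apoa1 without them likewise follows from that choice. Apoa2 and Ahsg, an apolipoprotein and fetuin-A, were too low to test and reached 52.3 and 78.1 CPM in CIE but 2.38 and 2.17 CPM in Air. Of 30 listed liver genes, 5 passed the filter on low counts, and since these 4 libraries were chosen by Alb, no count of signs is read from the list. The summed level of the list was 728 to 931 CPM in the 4 libraries, 173 to 236 CPM in the other CIE libraries and 43.4 to 119.7 CPM in Air, with Ttr as a member. Alb was likewise at 102 to 167 CPM in the hypothalamus and 82.7 to 221 CPM in the amygdala of these 4 mice, and at 0 in their blood. In female prefrontal cortex Alb ranged from 1.53 to 303 CPM in CIE and from 1.94 to 479 CPM in Air. It was under 5 CPM in 5 of 10 female CIE libraries and 6 of 9 female Air libraries, so high Alb was not confined to CIE there.

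**Figure D3:**
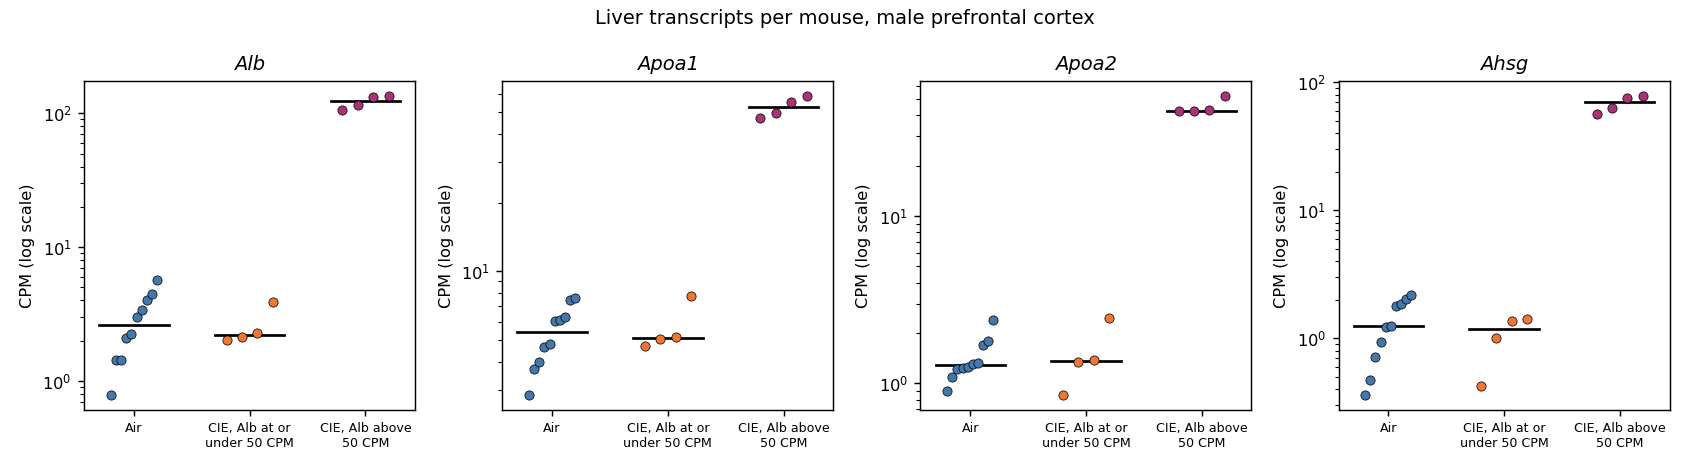
Level of the liver transcripts Alb, Apoa1, Apoa2 and Ahsg in male prefrontal cortex in CPM (vertical axis, log scale), with 1 point per mouse and a bar at the median. CIE mice 1 to 4, with Alb above 50 CPM, stand above all other mice in each panel, and for Alb the other CIE mice lie within the range of Air.

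Looser tests called more genes, nearly all tied to these libraries. DESeq2 called 70 genes on the 18 libraries, 62 of them higher in CIE, and all 62 had a higher unadjusted CPM in each of CIE mice 1 to 4 than in any other library. Hcrt was among the 62, but by TMM-adjusted CPM it was at 23.0 in CIE mouse 4 and 23.5 in CIE mouse 5. It was also called by DESeq2 without these 4 libraries (DESeq2 adjusted p = 0.00984). Without a filter on low counts edgeR called 110, with 104 higher, of which 103 had this pattern. The 8 genes lower in CIE by DESeq2 were Hspa1b, Hspb1, its pseudogene Hsp25-ps1, Manf, Numb and the lowly counted Mup4, Mup5 and Obp1a.

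Chaperone genes had lower values in CIE, though none passed an adjusted p of 0.05 by edgeR. Of 22 genes of heat shock and the unfolded protein response tested (23 listed, with Trib3 too low), 17 were negative and 11 were lower at an unadjusted p under 0.05, beside 2.81% of all genes, and 0 were higher. The median was -0.16 beside -0.00 for all genes. Without the liver-transcript libraries 18 of 22 were negative, 9 at that threshold beside 2.64% of all genes, with a median of -0.15.

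Among the cytosolic members, stress-induced and abundant chaperones are given in turn. Hspa1b is a stress-induced chaperone of the HSP70 family. For its level, CIE mice ran from 13.7 to 24.1 CPM with a median of 16.5, and Air mice from 20.3 to 69.0 CPM with a median of 34.4, and all 8 CIE mice lay below the Air median. Its log2 fold change was -1.06 (SE 0.19, edgeR p = 2.01e-05, adjusted p = 0.0859), and -0.94 (SE 0.26, edgeR p = 0.00225) without the liver-transcript libraries. Hspa1a, a near-identical copy whose reads may not be separable from those of Hspa1b, had -0.65 (SE 0.21, edgeR p = 0.00542). Hspb1, a small heat shock protein that keeps unfolded proteins soluble, ranged from 5.48 to 14.6 CPM in CIE and from 7.97 to 27.7 CPM in Air, with -0.87 (SE 0.22, edgeR p = 0.000912). Its pseudogene Hsp25-ps1 had -0.96 (SE 0.21, edgeR p = 0.000222), and the same uncertainty holds for that pair. Dnajb1, which delivers clients to HSP70, had -0.37 (SE 0.10, edgeR p = 0.00138). The abundant chaperones Hspa8, Hsp90aa1 and Hsp90ab1, present without stress, had log2 fold changes of 0.06, -0.02 and -0.10, none at an unadjusted p under 0.05.

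In the endoplasmic reticulum, Manf had the smallest p. It encodes a secreted protein that binds the chaperone BiP. For Manf, CIE mice ran from 55.9 to 73.6 CPM with a median of 69.6, and Air mice from 71.7 to 103 CPM with a median of 84.2, so that the ranges met only between 71.7 and 73.6 CPM. Its log2 fold change was -0.34 (SE 0.07, edgeR p = 0.000106, adjusted p = 0.228). Hspa5, which encodes BiP, ranged from 245 to 298 CPM in CIE and from 257 to 358 CPM in Air, with -0.24 (SE 0.07, edgeR p = 0.00225). Pdia6, a disulfide isomerase, had -0.23 (SE 0.06, edgeR p = 0.00129), and Xbp1, a transcription factor of the unfolded protein response, had -0.22 (SE 0.06, edgeR p = 0.000819). Sdf2l1 and Pdia4, also of the endoplasmic reticulum, had -0.36 and -0.28. Atf4 and Ddit3, which act downstream of the kinase PERK, had 0.06 and -0.04, with edgeR p values of 0.270 and 0.636.

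Promoters of these genes are shown because most members shared the sign of their difference. Of the 23 listed genes, 18 matched a RefSeq promoter (GRCm38.p6), and the 250 bases before the start were searched on both strands. The endoplasmic reticulum stress element, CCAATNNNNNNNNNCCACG, was found in 5 of the 18 and in 0.113% of all 32851 promoters. The heat shock cores TTCNNGAA and GAANNTTC, each of which reads the same on both strands, were found in 1 and 3 of the 18 and in 7.17% and 6.69% of all promoters. No listed gene held both cores. Stretches of 80 bases follow with the matches in capitals, from chr2:34772000-34772079 (plus strand) for Hspa5, chr12:17266466-17266545 (plus strand) for Pdia6, chr15:88819495-88819574 (plus strand) for Creld2, chr8:84847039-84847118 (minus strand) for Calr, chr10:86705602-86705681 (minus strand) for Hsp90b1, chr17:34959288-34959367 (minus strand) for Hspa1b and chr5:135887777-135887856 (plus strand) for Hspb1. The element is in reverse complement in Creld2 and Calr, and Hspa1a has the same letters as Hspa1b.
Hspa5: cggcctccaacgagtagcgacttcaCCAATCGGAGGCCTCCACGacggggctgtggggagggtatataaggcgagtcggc
Pdia6: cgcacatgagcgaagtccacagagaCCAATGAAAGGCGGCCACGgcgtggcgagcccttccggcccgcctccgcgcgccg
Creld2: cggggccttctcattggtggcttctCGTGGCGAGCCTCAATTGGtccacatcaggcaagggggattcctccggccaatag
Calr: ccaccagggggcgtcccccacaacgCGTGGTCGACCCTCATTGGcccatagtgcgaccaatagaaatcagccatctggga
Hsp90b1: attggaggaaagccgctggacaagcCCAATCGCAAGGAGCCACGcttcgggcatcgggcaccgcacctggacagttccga
Hspa1b: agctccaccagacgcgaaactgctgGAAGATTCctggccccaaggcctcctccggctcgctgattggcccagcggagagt
Hspb1: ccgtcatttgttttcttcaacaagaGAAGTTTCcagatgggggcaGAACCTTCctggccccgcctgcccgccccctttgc

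The 5 genes with the endoplasmic reticulum stress element had log2 fold changes of -0.24 for Hspa5, -0.23 for Pdia6, -0.22 for Creld2, -0.11 for Calr and -0.05 for Hsp90b1. The last of these had edgeR p values of 0.0749 (Calr) and 0.215 (Hsp90b1). A match describes letters and does not show that a factor was bound. The list was composed of heat shock and unfolded protein response genes, so its share of matches beside all promoters follows from that choice. It is not a result about CIE.

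In male hypothalamus 3 of 22 chaperone genes were positive (median -0.14), and 12 were lower at an unadjusted p under 0.05 beside 3.44% of all genes there. Hspa8 was higher at that threshold, with 0.27 (SE 0.10, edgeR p = 0.0149). In male amygdala 2 of 22 were positive (median -0.15), with 11 lower beside 4.62% of all genes. In female prefrontal cortex 9 of 22 were positive (median -0.01), with 2 lower beside 2.63% of all genes. The male regions are from the same mice and are not independent. Hspa1b had -1.65 (SE 0.29, edgeR p = 7.56e-06) in hypothalamus, -1.41 (SE 0.30, edgeR p = 0.000141) in amygdala and -0.11 (SE 0.20, edgeR p = 0.590) in female prefrontal cortex. The sex term for Hspa1b, male minus female, was -0.95 (SE 0.29, edgeR p = 0.00231, adjusted p = 0.960), so a difference between the sexes did not pass the adjustment. Manf had -0.24 (SE 0.09, edgeR p = 0.0122), -0.28 (SE 0.08, edgeR p = 0.00244) and -0.16 (SE 0.09, edgeR p = 0.0746) in the same order.

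**Figure D4:**
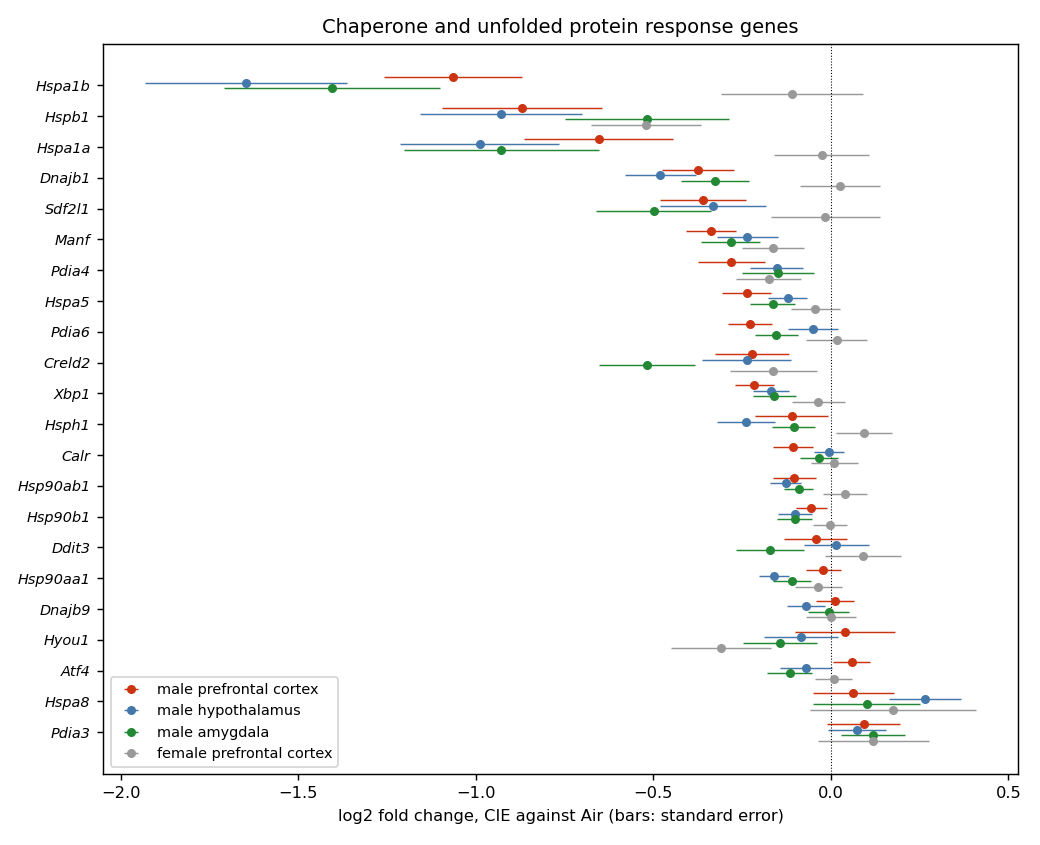
log2 fold change of CIE against Air (horizontal axis) with its standard error for the 22 tested chaperone and unfolded protein response genes, in male prefrontal cortex (red), male hypothalamus (blue), male amygdala (green) and female prefrontal cortex (grey). Hspa1b and Hspa1a lie left of 0 in the 3 male regions, and the median of the female points is -0.01.

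Nuclear genes of oxidative phosphorylation had small positive values, and none passed an adjusted p of 0.05 by edgeR. This list, too, was chosen with earlier results of these data known, so its shares are descriptions. With all libraries 64 of 73 were positive beside 49.7% of all genes, 15 were higher at an unadjusted p under 0.05 beside 2.78% of all genes and 0 were lower, and the median was 0.07. Without the liver-transcript libraries 62 of 72 were positive and 9 higher at that threshold beside 2.4% of all genes (median 0.08). By complex, 33 of 35 were positive in complex I, which oxidizes NADH, 4 of 4 in complex II, 5 of 8 in complex III, 8 of 10 in complex IV, which reduces oxygen, and 14 of 16 in complex V, the ATP synthase. Cox7c, a subunit of complex IV, ranged from 18.7 to 25.2 CPM in CIE and from 13.7 to 23.4 CPM in Air, with 0.37 (SE 0.09, edgeR p = 0.000721, adjusted p = 0.602). Atp5b, the catalytic subunit of complex V, ranged from 557 to 665 CPM in CIE and from 532 to 607 CPM in Air, with 0.12 (SE 0.05, edgeR p = 0.0168). Of the mRNAs of the mitochondrial genome, 8 of 8 were positive (median 0.04). In other libraries of the study 58 of 72 nuclear genes were positive in female prefrontal cortex beside 50.4% of all genes, 43 of 73 in male hypothalamus beside 50.3% and 40 of 73 in male amygdala beside 49.1%. Markers of neurons were also positive, at 6 of 7 with all libraries (median 0.04) and 7 of 7 without the liver-transcript ones (median 0.13), and their part in the values of this list was not tested.

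**Figure D5:**
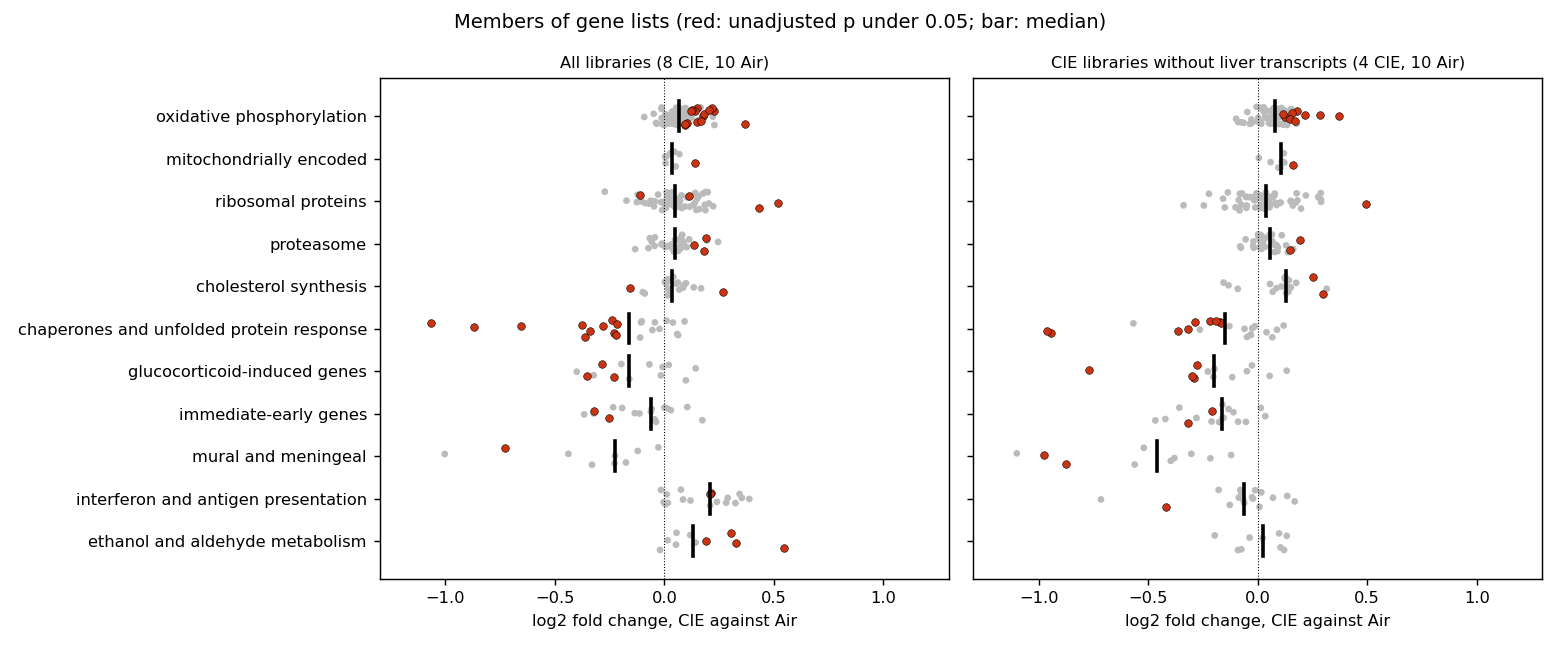
log2 fold change of CIE against Air (horizontal axis) for the tested members of 11 gene lists, with all libraries (left) and without the CIE libraries with liver transcripts (right), red points having an unadjusted p under 0.05 and bars marking medians. Medians lie right of 0 for oxidative phosphorylation and left of 0 for chaperones in both panels, and on opposite sides of 0 for interferon and antigen presentation.

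Lists of protein synthesis, protein turnover and sterols leaned the same way. Of ribosomal protein genes 48 of 63 were positive with all libraries (median 0.05, 3 higher and 1 lower at an unadjusted p under 0.05, beside 2.78% and 2.81% of all genes) and 39 of 61 without the liver-transcript ones. Of proteasome genes 22 of 31 were positive, and of cholesterol synthesis genes 17 of 20, beside 49.7% of all genes. Medians of the latter were 0.03 with all libraries and 0.13 without the liver-transcript ones. With all libraries, 3 proteasome genes were higher and 0 lower at an unadjusted p under 0.05, and 1 cholesterol synthesis gene was higher and 1 lower. Insig1, which retains the sterol sensor in the endoplasmic reticulum, had 0.27 (SE 0.09, edgeR p = 0.00741), and Pmvk, of the same list, had -0.16 (SE 0.07, edgeR p = 0.0312).

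Genes induced by glucocorticoids and by neuronal activity had mostly negative values. Of the former 3 of 13 were positive and 3 were lower at an unadjusted p under 0.05 beside 2.81% of all genes (median -0.16). Tsc22d3, the glucocorticoid-induced leucine zipper, ranged from 68.6 to 96.6 CPM in CIE and from 83.9 to 119 CPM in Air, with -0.28 (SE 0.08, edgeR p = 0.00206). Nfkbia, the inhibitor of NF-kB, ranged from 57.4 to 87.6 CPM in CIE and from 73.7 to 114 CPM in Air, with -0.35 (SE 0.10, edgeR p = 0.00242). Fkbp5, a co-chaperone of the glucocorticoid receptor, had -0.23 (SE 0.09, edgeR p = 0.0138). Of immediate-early genes 5 of 17 were positive with all libraries and 2 of 17 without the liver-transcript ones (medians -0.06 and -0.16). Positive values made up 49.7% and 49.6% of all genes in these 2 fits. In each fit 2 immediate-early genes were lower at an unadjusted p under 0.05, beside 2.81% and 2.64% of all genes. Jun had -0.32 (SE 0.12, edgeR p = 0.0113) and Egr3 -0.25 (SE 0.09, edgeR p = 0.0116), while Fos had -0.14 (SE 0.24, edgeR p = 0.583). Of circadian clock genes 8 of 15 were positive, with -0.23 (SE 0.06, edgeR p = 0.00201) for Per2, a repressor of the clock, and 0.18 (SE 0.08, edgeR p = 0.0278) for Nr1d1.

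For some lists the sign depended on the liver-transcript libraries. Of genes of interferon response and antigen presentation 16 of 18 were positive with them (median 0.21) and 5 of 17 without (median -0.06). Positive values made up 49.7% of all genes with these libraries and 49.6% without. B2m, the light chain of MHC class I, had 0.21 (SE 0.10, edgeR p = 0.0417) and then -0.02 (SE 0.07, edgeR p = 0.772). Of genes of ethanol and aldehyde oxidation 9 of 10 were positive (median 0.13) and then 5 of 9 (median 0.02). Aldh2, which clears acetaldehyde, had 0.30 (SE 0.09, edgeR p = 0.00278) and then 0.13 (SE 0.09, edgeR p = 0.234). Adh1, an alcohol dehydrogenase abundant in liver, averaged 11.7 CPM in CIE mice 1 to 4 and under 1 CPM in the other CIE mice and in Air.

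Of listed genes of the vessel wall and meninges 0 of 9 were positive with all libraries (median -0.23), with 1 lower at an unadjusted p under 0.05 beside 2.81% of all genes. With the liver-transcript libraries left out 0 of 10 were positive (median -0.46), with 2 lower beside 2.64%. Col1a2, a chain of type I collagen, ranged from 19.8 to 55.9 CPM in CIE and from 21.8 to 97.6 CPM in Air, with -0.73 (SE 0.25, edgeR p = 0.00883), and Col1a1, the other chain, had -1.10 (SE 0.64, edgeR p = 0.101) without the liver-transcript libraries. The summed level of the list was 202 to 405 CPM in Air, 177 to 253 CPM in CIE without liver transcripts and 193 to 323 CPM in CIE with them, so that the groups overlapped. In bulk tissue, fewer cells of a type and less RNA per cell cannot be told apart.

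Numb, an adaptor that restrains Notch signaling, was the only gene with every CIE mouse below every Air mouse (0.00778% of genes tested). For Numb, CIE mice ran from 58.0 to 68.2 CPM with a median of 65.5, and Air mice from 73.4 to 93.9 CPM with a median of 77.4. Its log2 fold change was -0.30 (SE 0.06, edgeR p = 5.14e-05, adjusted p = 0.154), and -0.28 (SE 0.08, edgeR p = 0.00164) without the liver-transcript libraries. In male hypothalamus it had 0.02 (SE 0.07, edgeR p = 0.835) and in male amygdala 0.04 (SE 0.07, edgeR p = 0.630). The region terms, prefrontal cortex minus the other region, were -0.31 (SE 0.09, edgeR p = 0.00138, adjusted p = 1.000) and -0.33 (SE 0.09, edgeR p = 0.000843, adjusted p = 1.000). These fits did not pair the libraries of a mouse.

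Other genes with small p values fell short of the threshold. Mfsd2a, a lipid carrier of the blood-brain barrier, had -0.54 (SE 0.10, edgeR p = 4.71e-05, adjusted p = 0.305) without the liver-transcript libraries and -0.40 (SE 0.12, edgeR p = 0.00316) with all. Egfr, a growth factor receptor, turned sign, with -0.58 (SE 0.15, edgeR p = 0.00112) without those libraries and 0.30 (SE 0.22, edgeR p = 0.198) with all. Foxd1 and Tbx18, transcription factors, had -0.91 (SE 0.22, edgeR p = 0.000600) and -0.97 (SE 0.26, edgeR p = 0.00122) with all libraries. Serpinh1, the chaperone of collagen, had -0.89 (SE 0.21, edgeR p = 0.000525) without the liver-transcript ones, and Fbln1, a matrix protein, had -0.46 (SE 0.12, edgeR p = 0.000655) with all. These 4 were named for their small p and belong to none of the lists. Gsdme, a pore-forming protein of cell death, ranged from 16.1 to 20.9 CPM in CIE and from 9.80 to 17.1 CPM in Air, with 0.44 (SE 0.11, edgeR p = 0.000582). Gnai1, a subunit of inhibitory G proteins, ranged from 143 to 181 CPM in CIE and from 122 to 159 CPM in Air, with 0.22 (SE 0.06, edgeR p = 0.00141). Zfp512b, a zinc finger protein, had 0.61 (SE 0.15, edgeR p = 0.000527). Cyp7b1, a hydroxylase of oxysterols that liver also makes, had 0.59 (SE 0.13, edgeR p = 0.000260) with all libraries and 0.31 (SE 0.15, edgeR p = 0.0509) without the liver-transcript ones.

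Of the listed genes of synaptic signaling, none passed an adjusted p of 0.05 by edgeR. Of GABA-A receptor subunits 6 of 12 were positive, beside 49.7% of all genes, and 0 had an unadjusted p under 0.05. That threshold was met by 5.59% of all genes, so lists this short say little by it. Of glutamate receptor subunits 8 of 22 were positive, with Grm7, a presynaptic receptor, alone under that threshold at -0.22 (SE 0.10, edgeR p = 0.0323). Gabra2 and Gabrg1 without the liver-transcript libraries had -0.25 (SE 0.10, edgeR p = 0.0221) and -0.25 (SE 0.12, edgeR p = 0.0458). Of ion channels listed for ethanol response 11 of 19 were positive, with Hcn2, a pacemaker channel, at 0.27 (SE 0.10, edgeR p = 0.0125). Of cortical neuropeptides 3 of 14 and of neuropeptide receptors 7 of 17 were positive, with 0 at an unadjusted p under 0.05. Crh, the gene of corticotropin-releasing hormone, ranged from 5.17 to 10.5 CPM in CIE and from 5.59 to 17.0 CPM in Air, with -0.32 (SE 0.20, edgeR p = 0.120).

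Markers of cell types were examined with and without the liver-transcript libraries, where 49.7% and 49.6% of all genes were positive. With all libraries, positive values were found for 6 of 7 markers of neurons, 4 of 11 of cortical excitatory neurons, 5 of 10 of interneurons, 4 of 8 of astrocytes, 6 of 10 of oligodendrocytes, 4 of 6 of their precursors, 4 of 9 of microglia and 5 of 8 of endothelium, with medians between -0.02 and 0.05. Tmem119, of microglia, was the only one of these with an unadjusted p under 0.05, at -0.16 (SE 0.07, edgeR p = 0.0393). The medians without the liver-transcript libraries were 0.13 for neurons, 0.10 for cortical excitatory neurons, -0.04 for astrocytes and -0.08 for microglia, beside -0.00 for all genes. There, 7 of 7 neuron markers were positive, with Snap25, of synaptic vesicle fusion, at 0.14 (SE 0.06, edgeR p = 0.0393) and Eno2, the neuronal enolase, at 0.13 (SE 0.05, edgeR p = 0.0200). Of astrocyte markers 2 of 8 were positive, with Aldh1l1 at -0.29 (SE 0.12, edgeR p = 0.0254) and Gja1 at -0.18 (SE 0.08, edgeR p = 0.0394). Of microglia markers 1 of 9 were positive, with C1qc, a complement subunit, at -0.19 (SE 0.06, edgeR p = 0.00852). Markers of neighbouring tissue were positive for 6 of 7 genes of striatum (median 0.21), 5 of 7 of thalamus and 2 of 4 of red cells.

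Interaction terms over all genes gave no calls. For sex, 0 of 13157 genes passed by edgeR and 0 by DESeq2, with 586 at an unadjusted p under 0.05 (4.45%). Zfp512b had the smallest p, with a term, male minus female, of 0.95 (SE 0.20, edgeR p = 3.46e-05, adjusted p = 0.456). For hypothalamus, 0 of 13877 genes passed by edgeR, with 376 at an unadjusted p under 0.05 (2.71%), led by Gsdme, with a term, prefrontal cortex minus hypothalamus, of 0.51 (SE 0.13, edgeR p = 0.000361, adjusted p = 1.000). For amygdala, 0 of 13579 passed by edgeR, with 483 (3.56%), led by Gm28883 with 1.34 (SE 0.32, edgeR p = 0.000185, adjusted p = 1.000). Both region comparisons used libraries of the same mice, which these fits treated as independent.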

How the data were processed

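The members and gene lists were chosen with earlier results of these data known. Per the labels, the submitters' processing notes name Bowtie2, SAMtools, HTSeq and limma 3.42.2 with the builds GRCm38 and mm10, and no strand setting was found. The deposited values were raw counts per gene and, used only as an alternative, voom log2 values of the authors. ERCC rows and the counter's lines for unassigned reads (27.6% to 28.8% of reads) were left out. CIE was compared with Air by the quasi-likelihood test of edgeR 4.0.16 (R 4.3.3, TMM, minimum count of 10), with Benjamini-Hochberg adjustment over all genes tested at 0.05. DESeq2 1.42.0 and limma 3.58.1 were alternatives, and the fit was tested on simulated data. Named genes were those past the threshold, the 12 of smallest p per direction in each fit, the 2 of smallest p per list, the hypocretin genes and the leading liver and interaction genes, of which some are described. Other members given as examples, such as Oxt, Hspa8, Hspa5, Atf4 and Fos, were picked with their values in view. No 2 libraries were identical (lowest chi-square by degrees of freedom 1.52). Except in the unpaired region terms, p-values measure the spread between numbered mice. Libraries of 1 number come from the same mouse.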

Additional observations from a re-analysis of the deposited data

Results flagged for a closer look

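Among 24 groups of libraries examined for a single library far from the others (4 library measures and 8 genes, in CIE and in Air), 4 were picked out, where chance gives about 1 in 20. Avp, the vasopressin gene, was at 5.50 CPM in CIE mouse 20 against a CIE median of 2.83. Hspa1b was at 24.1 CPM in CIE mouse 16 against a CIE median of 16.5, and at 69.0 CPM in Air mouse 9 against an Air median of 34.4. Manf was at 55.9 CPM in CIE mouse 20 against a CIE median of 69.6.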

How the results depend on the processing

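With all libraries, 1 gene passed in the edgeR fit, and the number was 110 without a filter on low counts, 70 by DESeq2, 2 by limma voom (Hcrt and Ttr), 3 at an adjusted p under 0.1 (Hcrt, Alb and Hspa1b), 0 with the liver list as covariate, 0 without the liver-transcript libraries and the liver list, and, added after the data were seen, 4 without the 3 libraries of high Gad1 (Hcrt, Alb, Rbp4 and Hspa1b). With 1 mouse left out in turn the count lay between 1 and 4, with 4 without CIE mouse 16 and 2 without CIE mouse 5, 18 or 20 or Air mouse 15. Without the liver-transcript libraries DESeq2 called 1 gene and edgeR 0 in all of 14 fits with 1 mouse left out. The Hcrt log2 fold change fell from 1.46 to 1.19 without the liver-transcript libraries and to 1.05 with the liver covariate, and was 1.38 to 1.56 with 1 mouse left out, with an adjusted p of at most 0.00473. With 1 mouse left out, 61 to 69 oxidative phosphorylation genes, 42 to 49 ribosomal genes and 3 to 7 chaperones were positive, with 3 chaperones without CIE mouse 5. Without the liver-transcript libraries the difference between CIE and Air reversed to -85984 gene counts and to -158 genes detected. Libraries of 1 mouse pair the regions. With the mouse as a replicate block, 0 genes passed in either region interaction, as without it, so the block changed no call. At these depths Hcrt rests on as few as 10 reads in a library, and genes below the filter could not be judged.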
